A study of Mus musculus with 10 samples.

Results

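The genes examined here are the mouse genes whose products modify, fold, trim and cross-link procollagen, the soluble precursor of collagen fibers. The set was fixed by gene symbol and holds 31 genes of the 55401 in the deposited tables, each under a single gene identifier. It was divided by step into 13 hydroxylases and glycosyltransferases, 5 chaperones, 7 genes of propeptide cleavage and 6 cross-linking enzymes.

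The left ventricle (LV) was sampled from WT mice at 4 weeks of age, with 1 RNA-seq library per mouse. The nAAC group (n = 5) had undergone constriction of the ascending aorta as newborns, which loads the young LV with pressure, and the sham group (n = 5) had undergone the operation without constriction. Pups of both groups stayed with their mothers and were breast fed. The study asked how the young LV remodels under pressure overload, and its authors had already named Adamts2, Col1a1, Col1a2 and Col3a1 from these libraries, so none of them is independent evidence of a direction here.

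Collagen chains are hydroxylated on proline and lysine and glycosylated in the endoplasmic reticulum, where the triple helix winds with the help of chaperones. After secretion, proteases cut off the end propeptides, and the trimmed molecules assemble into fibrils that lysyl oxidases and a transglutaminase bind together covalently. In the heart, fibroblasts are the main makers of this matrix, and its cross-linking is known to bear on the stiffness of the ventricle.

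Of the 31 genes, 27 reached a mean FPKM of at least 1 and were tested for a difference between nAAC and sham mice. FPKM is a level per transcript length, so levels of different genes can be set side by side. The test was limma on log2(FPKM + 1), adjusted over all 11867 genes tested, and a fold change (FC) on this scale understates the change of weakly expressed genes. A gene is called a DEG at an adjusted p below 0.05 and a log2 FC above 1, the thresholds the study used. At these thresholds 11 of the 27 rose in the nAAC mice and none fell, while 5.01% of all genes tested were DEGs in this direction. With the adjusted p alone, 22 rose, against 27.1% of all genes, and 0 fell in the limma fit (1, P3h4, at an unadjusted p below 0.05), against 4.60%. The 5 that did not pass were P3h4, Colgalt2, Fkbp10, Fkbp7 and Adamts3. All 5 nAAC values lay above all 5 sham values in 21 of the 27 tested genes, against 18.9% of all genes tested, and in 2 of the 4 untested ones. P3h2 passed the filter only through the nAAC mice, since its sham mean was below 1, and Adamts3 only through the sham mice.

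The median log2 FC of the 27 genes was 0.87, with a range from -0.48 to 2.34. The median over all genes tested was itself 0.22, a general shift that median-ratio scaling of the libraries brought to 0.00. After that scaling the median of the 27 genes was 0.62, and 10 remained DEGs, against 3.09% of all genes, with Serpinh1 dropping to a log2 FC of 0.96. Of the 27, 20 were then higher and 2 lower (P3h4 and Fkbp10) in nAAC mice at an adjusted p below 0.05, against 13.0% and 12.1% of all genes.

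**Figure D1:**
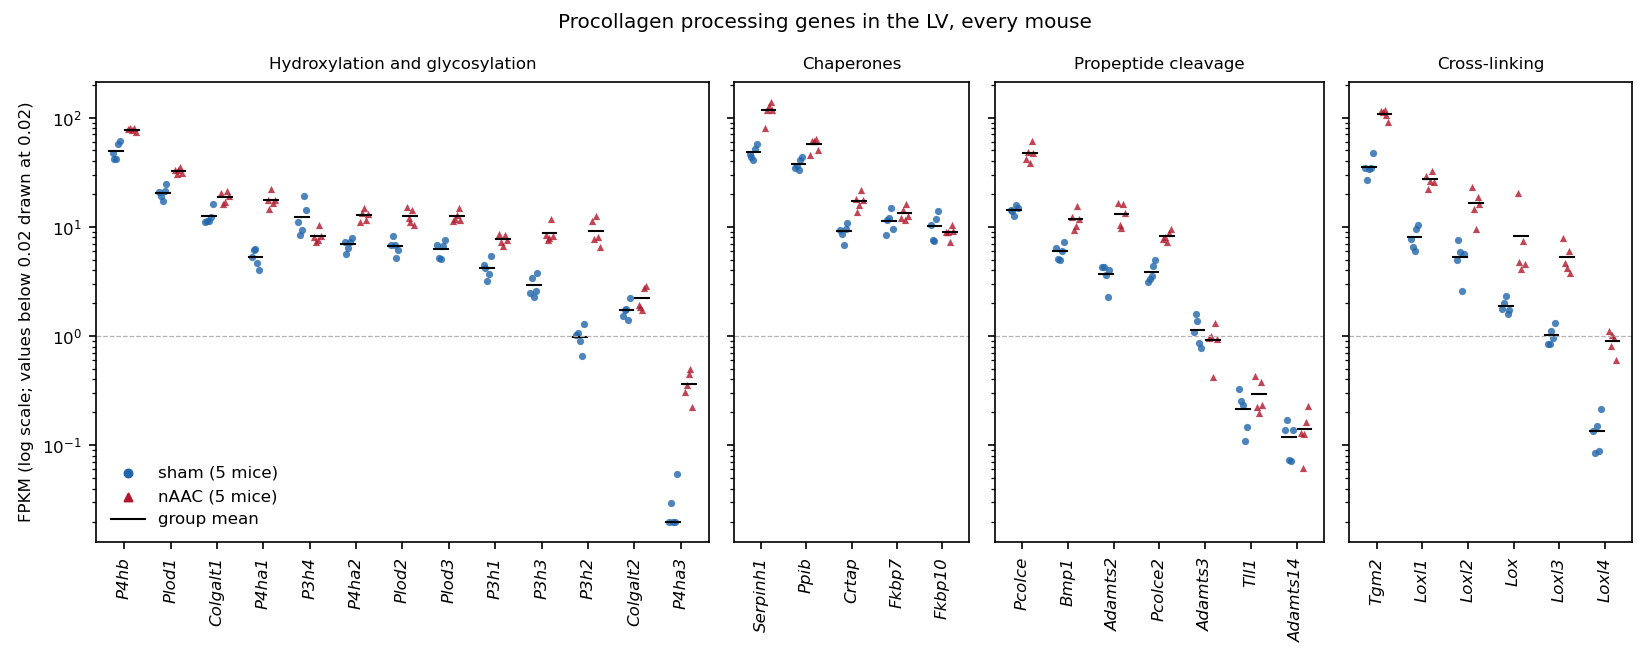
FPKM of the 31 genes in each of 5 sham mice (circles) and 5 nAAC mice (triangles) on a log axis, by step and in order of mean level, with group means as bars and values below 0.02 drawn at 0.02. The nAAC points stand clear above the sham points in 23 genes, and no gene shows the opposite separation.

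**Figure D2:**
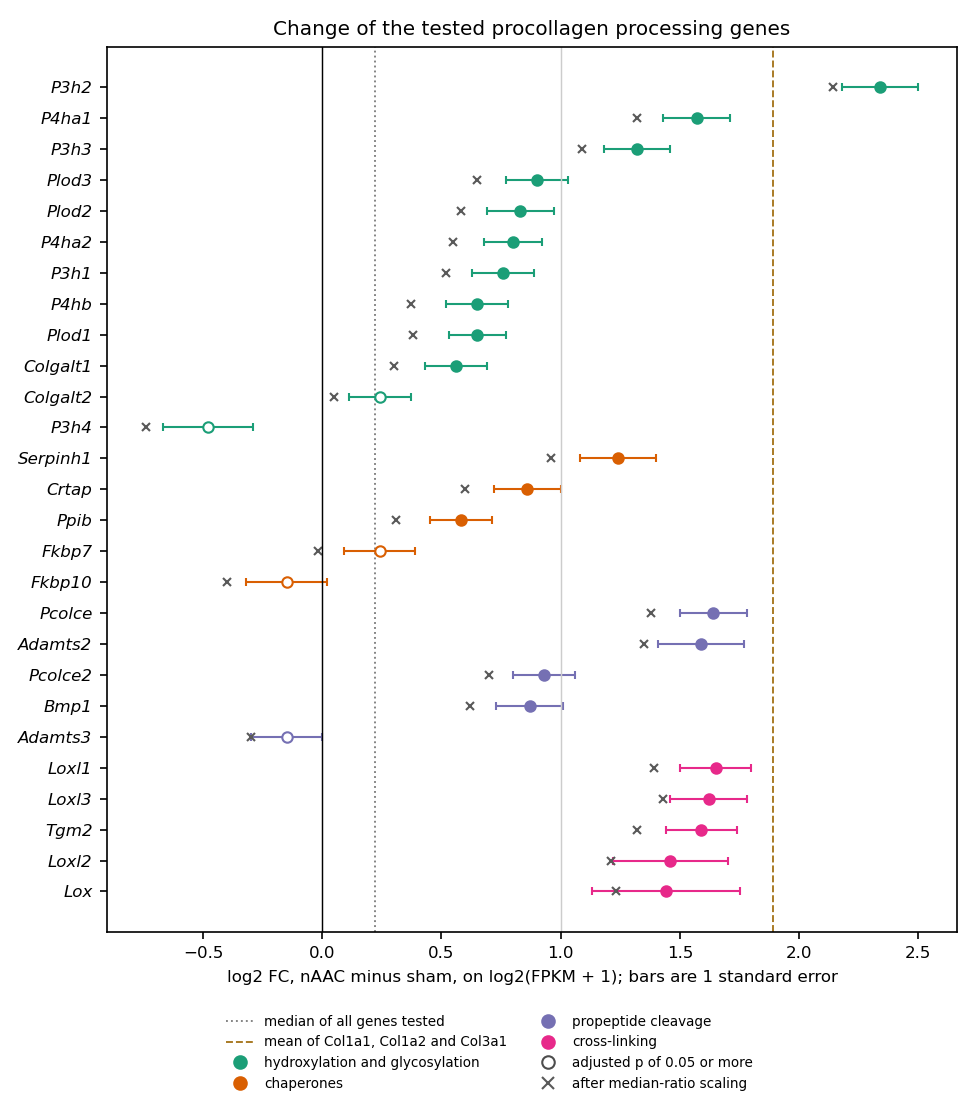
Log2 FC of the 27 tested genes, nAAC minus sham, on log2(FPKM + 1), with 1 standard error (5 mice per group), filled where the adjusted p is below 0.05, and with crosses for the value after median-ratio scaling. The 5 cross-linking genes lie between 1.44 and 1.65, near the dashed mean of Col1a1, Col1a2 and Col3a1 (1.89), while the other steps spread from -0.48 to 2.34.

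The libraries were of similar size, with an estimated 4.86 to 6.82 aligned gigabases, of which nAAC 1 had the most. Sham 4 stood apart from the others on the second principal component, and the first, with 54.7% of the variance, separated the groups. The share of TPM from mitochondrial genes was 32.8% to 39.9% in nAAC and 33.7% to 49.8% in sham mice. The tissue label was checked on 8 cardiomyocyte markers, which were at high levels in every mouse. Their summed FPKM ran from 15200 to 23800 in nAAC and from 17400 to 31500 in sham mice. Among them Actc1 rose (log2 FC 0.60), while Tnni3 (-0.82) and Pln (-0.86) fell at the adjusted p. Of 4 atrial markers, Nppa alone passed in the limma fit, with adjusted p = 3.58e-09, and it is also a known stress gene of the ventricle. Myl4, Myl7 and Sln had higher means in nAAC mice with a wide spread. Myl4 was at 43.2 ± 55.3 against 6.84 ± 6.51 FPKM, Myl7 at 29.5 ± 35.6 against 7.68 ± 8.49 and Sln at 6.14 ± 8.35 against 1.37 ± 1.86 (SD, n = 5). The part of atrial tissue in these values was not tested. Summed FPKM of 8 fibroblast markers ran from 927 to 1370 in nAAC and from 642 to 901 in sham mice without overlap. At the adjusted p, 4 of the 8 rose (Mfap5, Tcf21, Lum and Dcn), against 27.1% of all genes. Of 6 mural cell markers 4 rose, with sums from 262 to 388 against 178 to 283. Of 6 endothelial markers 1 rose (Kdr), and of 6 macrophage and leukocyte markers 0 rose. Of 6 valve, cartilage or bone markers, Comp and Sox9 rose, the sums were 16.2 to 45.2 against 1.0 to 3.0, and Ibsp and Bglap were at 0 in every library. The sum of the fibroblast markers rests mostly on Gsn and Dcn, at 516 and 421 FPKM on average in nAAC mice, with Mfap5 next at 102. With this sum as a covariate, 8 of the 22 increases still passed the adjusted p, against 3.94% of all genes. All 8 of them were DEGs, and the median log2 FC of the set was 0.58. The DEGs that no longer passed in that fit kept a log2 FC above 1, at 1.21 for Lox, 1.24 for Loxl2 and 1.01 for Serpinh1. In a bulk tissue, more cells of a type and more RNA per cell cannot be told apart, and the part of cell composition in the results was otherwise not tested.

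Hydroxylation and glycosylation had the widest range of log2 FC among the 4 steps. Of its 12 tested genes 10 rose, 3 of them as DEGs (P3h2, P4ha1 and P3h3), against 27.1% and 5.01% of all genes tested. The summed FPKM of the 13 genes went from 112 to 154 in sham mice to 210 to 235 in nAAC mice. The median log2 FC was 0.78, or 0.54 after median-ratio scaling.

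Prolyl 4-hydroxylase makes the hydroxyproline that holds the triple helix stable at body temperature, and it consists of a catalytic alpha subunit and the beta subunit P4hb, which also acts alone as protein disulfide isomerase. P4ha1 (chr10:59323296-59373304, plus strand, mm10) stood at 17.5, 14.6, 22.2, 16.6 and 17.4 FPKM in nAAC mice 1 to 5 and at 5.31, 6.13, 6.25, 4.68 and 4.03 FPKM in sham mice 1 to 5. The lowest nAAC mouse was far above the highest sham mouse, and the log2 FC was 1.57 ± 0.14 (SE, adjusted p = 3.70e-06). Its paralog P4ha2 started from a similar sham level, 6.90 ± 0.910 FPKM (SD, n = 5), and reached 12.8 ± 1.52 FPKM, a log2 FC of 0.80 ± 0.12 (SE, adjusted p = 2.86e-04). P4ha1 supplied 57.2% ± 3.41 of the summed FPKM of the alpha subunits in nAAC and 43.3% ± 7.56 in sham mice (SD, n = 5, exact permutation p = 0.0159, adjusted over 8 families 0.0317). The groups overlapped in this share, with a lowest nAAC value of 51.8% and a highest sham value of 52.2%, and the call was lost when nAAC 1, 3, 4 or 5 was left out. P4ha3 was below the filter on level, at 0.222 to 0.499 FPKM in nAAC mice, and it was listed at 0 in 3 sham mice and at most 0.0548 in the others. In the fit with no filter it was higher in nAAC mice (log2 FC 0.42, adjusted p = 6.45e-04). P4hb, the most abundant gene of the step, stood at 78.1, 80.8, 76.5, 79.5 and 73.0 FPKM in nAAC and at 46.9, 41.9, 41.9, 57.2 and 60.8 FPKM in sham mice. The nAAC mice were tightly grouped above the sham mice, and the log2 FC was 0.65 ± 0.13 (SE, adjusted p = 0.00271), smaller than that of P4ha1.

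RefSeq promoter windows from 250 bases before to 50 after the start site were matched to 20 of the 31 genes, in 22 windows of build GRCm38.p6. They are shown for the paralogs P4ha1 and P4ha2, whose log2 FCs differed in size, and for Adamts2, which the study examined as a target of the transcription factor AHR. Each is written 5′ to 3′ on the strand of the gene. Capitals mark the AHR core GCGTG and the ACGTG form of the hypoxia response core, searched on both strands and hence also seen as CACGC and CACGT. The letters GCGTG were counted under AHR alone, so the hypoxia counts cover the form ACGTG only. The P4ha1 window lies at chr10:59323046-59323345 on the plus strand, that of P4ha2 at chr11:54100674-54100973 on the plus strand, and that of Adamts2 at chr11:50601835-50602134 on the plus strand. The P4ha1 and Adamts2 windows span the annotated gene starts, at 59323296 and 50602084. That of P4ha2 lies wholly inside the gene, which starts at 54100095, so it belongs to a start site further in. The windows of the 2 paralogs are therefore not matched in position.
P4ha1: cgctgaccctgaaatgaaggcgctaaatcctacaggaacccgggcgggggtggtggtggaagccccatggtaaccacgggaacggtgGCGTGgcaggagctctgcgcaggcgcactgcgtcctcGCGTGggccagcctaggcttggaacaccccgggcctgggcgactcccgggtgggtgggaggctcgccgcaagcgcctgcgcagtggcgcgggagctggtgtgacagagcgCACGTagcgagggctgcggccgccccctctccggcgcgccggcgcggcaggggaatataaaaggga
P4ha2: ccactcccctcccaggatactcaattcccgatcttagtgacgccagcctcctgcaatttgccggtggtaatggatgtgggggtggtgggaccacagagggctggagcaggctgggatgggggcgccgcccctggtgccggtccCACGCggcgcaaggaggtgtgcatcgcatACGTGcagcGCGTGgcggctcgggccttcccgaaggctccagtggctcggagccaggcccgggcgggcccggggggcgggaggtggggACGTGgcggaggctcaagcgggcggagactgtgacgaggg
Adamts2: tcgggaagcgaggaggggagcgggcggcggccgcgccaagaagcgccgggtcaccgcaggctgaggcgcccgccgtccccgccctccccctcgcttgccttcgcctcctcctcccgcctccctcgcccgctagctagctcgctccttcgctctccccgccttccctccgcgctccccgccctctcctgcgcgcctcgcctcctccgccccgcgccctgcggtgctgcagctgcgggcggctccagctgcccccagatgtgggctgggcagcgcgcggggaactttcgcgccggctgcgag
The P4ha1 window held 2 AHR cores and 1 hypoxia core, that of P4ha2 held 2 of each, and that of Adamts2 held neither within these 300 bases. The study's evidence on Adamts2 was of another kind. It used chromatin immunoprecipitation of AHR in human stem cell-derived cardiomyocytes, an AHR inhibitor and AHR knockout mice. Sequence outside the mouse window was not searched here, and binding of AHR was not tested. Of the 20 genes, 14 had an AHR core, in 15 of the 22 windows, against 32.4% of all 32851 promoter windows of this length. The hypoxia core was in 8 of the 22 windows, against 19.6% of all. These windows were also richer in bases G and C than the rest, with a median of 63.0% against 52.7% and a median of 22 CG dinucleotides against 7, and both cores contain CG. The matches are a description of the letters, and the part of base composition in these shares was not tested.

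The prolyl 3-hydroxylases modify a small number of proline positions in the collagen chain, and P3h1 does so in a complex with Crtap and Ppib. P3h2 (chr16:25959288-26105784, minus strand), best known for its action on basement membrane collagen, showed the largest log2 FC of the set. It stood at 11.2, 7.74, 12.6, 7.98 and 6.53 FPKM in nAAC mice 1 to 5 and at 1.01, 1.06, 0.895, 0.654 and 1.28 FPKM in sham mice 1 to 5. Every nAAC mouse was several times above every sham mouse, with a ratio of group means of 9.40 and a log2 FC of 2.34 ± 0.16 (SE, adjusted p = 5.67e-07). An antisense gene, Gm4524, overlaps its end at 1.22 FPKM in nAAC and 0.353 in sham mice, and use of strand in the quantification is not given in the sources used here. P3h3, which acts with the lysyl hydroxylase Plod1, stood at 8.47, 7.64, 7.96, 11.7 and 8.28 FPKM in nAAC and at 2.49, 3.42, 2.29, 2.60 and 3.79 FPKM in sham mice. These groups were also apart, with nAAC 4 the highest, and the log2 FC was 1.32 ± 0.14 (SE, adjusted p = 1.79e-05). P3h1 rose from 4.19 ± 0.846 to 7.72 ± 0.804 FPKM (SD, n = 5), a log2 FC of 0.76 ± 0.13 (SE, adjusted p = 6.83e-04).

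The makeup of this family differed between the groups. P3h1 supplied 51.8% ± 2.95 of the summed FPKM of P3h1, P3h2 and P3h3 in sham mice and 30.2% ± 3.48 in nAAC mice (SD, n = 5, exact permutation p = 0.0079, the smallest that 5 against 5 can give, adjusted over 8 families 0.0212). Each sham mouse was above each nAAC mouse in this share. The share of P3h2 was 12.1% in sham and 35.5% in nAAC mice, while that of P3h3 was 36.0% and 34.3%.

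The lysyl hydroxylases prepare the lysines that are later cross-linked, with Plod2 known for acting on the telopeptide ends and Plod3 for an added glycosyltransferase activity. All of them rose by less than the DEG threshold. The log2 FC was 0.90 ± 0.13 for Plod3 (SE, adjusted p = 1.90e-04), 0.83 ± 0.14 for Plod2 (adjusted p = 5.86e-04) and 0.65 ± 0.12 for Plod1 (adjusted p = 0.00108). Plod1 had the highest level, 32.7 ± 1.83 FPKM in nAAC and 20.6 ± 2.75 FPKM in sham mice (SD, n = 5). The Plod2 share of the family ran from 19.4% to 25.5% in nAAC and from 15.7% to 25.1% in sham mice (exact permutation p = 0.4524, adjusted over 8 families 0.517), a difference within the spread between mice. Plod3 overlaps Znhit1 on the opposite strand, which was at 20.7 FPKM in nAAC and 14.9 FPKM in sham mice.

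Of the glycosyltransferases that attach galactose to hydroxylysine, Colgalt1 rose from 12.5 ± 2.22 to 18.8 ± 2.26 FPKM (SD, n = 5), a log2 FC of 0.56 ± 0.13 (SE, adjusted p = 0.00635), with overlapping groups. This call was lost after median-ratio scaling (0.30). Colgalt2 was low and did not pass, at 2.22 ± 0.543 FPKM in nAAC and 1.72 ± 0.307 FPKM in sham mice (log2 FC 0.24 ± 0.13, adjusted p = 0.185). Colgalt1 supplied 89.5% of their summed FPKM in nAAC and 87.8% in sham mice (exact permutation p = 0.1111, adjusted over 8 families 0.1778).

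P3h4, a noncatalytic relative that takes part in lysine hydroxylation with Plod1 and P3h3, was the one member of the step with a lower mean in nAAC mice, 8.28 ± 1.17 against 12.4 ± 4.25 FPKM (SD, n = 5). Sham 4, the library apart on the second component, had the highest value, 19.0 FPKM, and the lowest sham value of 8.48 FPKM lay within the nAAC range of 7.28 to 10.3 FPKM. The log2 FC of -0.48 ± 0.19 did not pass (adjusted p = 0.0633). After median-ratio scaling it was -0.74 and passed (adjusted p = 0.00366). P3h4 and the chaperone gene Fkbp10 are neighbors on chromosome 11, transcribed away from each other with 860 bases between them.

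Among the chaperones, Serpinh1 was the single DEG. Its product, HSP47, is a chaperone that binds the folded procollagen helix on the way to the Golgi. Serpinh1 (chr7:99345376-99353239, minus strand) stood at 79.7, 117, 128, 138 and 118 FPKM in nAAC and at 46.8, 43.3, 40.9, 51.7 and 57.7 FPKM in sham mice. The groups did not overlap, although nAAC 1 was well below the other nAAC mice, and the log2 FC was 1.24 ± 0.16 (SE, adjusted p = 9.17e-05). At 116 FPKM on average, it was the most abundant of the 31 genes in the nAAC LV, whereas P4hb was the most abundant in the sham LV.

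Crtap and Ppib, the partners of P3h1, rose by 0.86 ± 0.14 (SE, adjusted p = 6.68e-04) and 0.58 ± 0.13 (adjusted p = 0.00579) on the log2 scale. Ppib, a prolyl isomerase, was abundant at 56.7 ± 8.04 FPKM in nAAC and 37.5 ± 4.48 FPKM in sham mice (SD, n = 5), and its adjusted p after median-ratio scaling was 0.0555. Fkbp10 and Fkbp7, prolyl isomerases of another class, did not pass. Fkbp10 was at 8.92 ± 1.07 FPKM in nAAC and 10.2 ± 2.83 FPKM in sham mice (log2 FC -0.15 ± 0.17, adjusted p = 0.508), and after median-ratio scaling it was lower in nAAC mice (-0.40, adjusted p = 0.0418). It overlaps Nt5c3b, transcribed from the opposite strand at 10.3 FPKM in nAAC and 10.8 FPKM in sham mice. Fkbp7 was at 13.3 ± 1.85 FPKM in nAAC and 11.2 ± 2.47 FPKM in sham mice (log2 FC 0.24 ± 0.15, adjusted p = 0.244, and -0.02 after median-ratio scaling).

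Of the 5 tested genes of propeptide cleavage, 4 rose, with Adamts2 and Pcolce as DEGs, against 27.1% and 5.01% of all genes tested. The summed FPKM of the 7 genes was 66.2 to 103 in nAAC against 26.2 to 32.2 in sham mice. Adamts2 (chr11:50602084-50807573, plus strand) encodes the principal protease that removes the amino-terminal propeptide of fibrillar procollagens. It stood at 16.6, 10.3, 9.64, 16.1 and 13.4 FPKM in nAAC mice 1 to 5 and at 4.32, 4.26, 3.58, 2.30 and 3.99 FPKM in sham mice 1 to 5. The lowest nAAC mouse was more than double the highest sham mouse, with sham 4 the lowest of all, and the log2 FC was 1.59 ± 0.18 (SE, adjusted p = 2.45e-05).

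The paralogs of Adamts2 were scarce, and neither showed a difference that passed a test. Adamts3 was at 0.923 ± 0.321 FPKM in nAAC and 1.13 ± 0.343 FPKM in sham mice (SD, n = 5, log2 FC -0.15 ± 0.15, adjusted p = 0.448). Adamts14 was below the filter on level, at 0.0615 to 0.231 FPKM in nAAC and 0.0719 to 0.172 FPKM in sham mice (exact permutation p = 0.5317). Adamts2 supplied 92.6% ± 1.61 of the summed FPKM of the family in nAAC and 74.5% ± 4.87 in sham mice, with every nAAC mouse above every sham mouse (SD, n = 5, exact permutation p = 0.0079, adjusted over 8 families 0.0212). With paralogs this scarce, the share largely follows the level of Adamts2 itself and is not separate evidence of its rise.

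The carboxy-terminal propeptide is removed by the protease Bmp1, whose activity the enhancer protein Pcolce raises. Pcolce (chr5:137605103-137613784, minus strand) stood at 41.6, 47.9, 38.5, 61.3 and 47.8 FPKM in nAAC and at 14.3, 14.1, 12.4, 16.0 and 14.9 FPKM in sham mice. The sham mice were close together and far below the nAAC mice, and the log2 FC was 1.64 ± 0.14 (SE, adjusted p = 2.17e-06). The protease itself had a smaller log2 FC and rose from 5.96 ± 0.964 to 11.8 ± 2.37 FPKM (SD, n = 5), a value of 0.87 ± 0.14 (SE, adjusted p = 6.15e-04). Pcolce2, a relative of Pcolce, rose from 3.86 ± 0.772 to 8.24 ± 0.899 FPKM, a log2 FC of 0.93 ± 0.13 (SE, adjusted p = 1.23e-04). Pcolce supplied 85.0% ± 1.55 of the summed FPKM of both enhancers in nAAC and 78.9% ± 2.72 in sham mice (SD, n = 5, exact permutation p = 0.0079, adjusted over 8 families 0.0212), again with no overlap. Tll1, a relative of Bmp1, was below the filter on level, at 0.197 to 0.429 FPKM in nAAC and 0.109 to 0.330 FPKM in sham mice, and Bmp1 made up 97.6% and 96.4% of their sum (exact permutation p = 0.1508, adjusted over 8 families 0.2011).

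**Figure D3:**
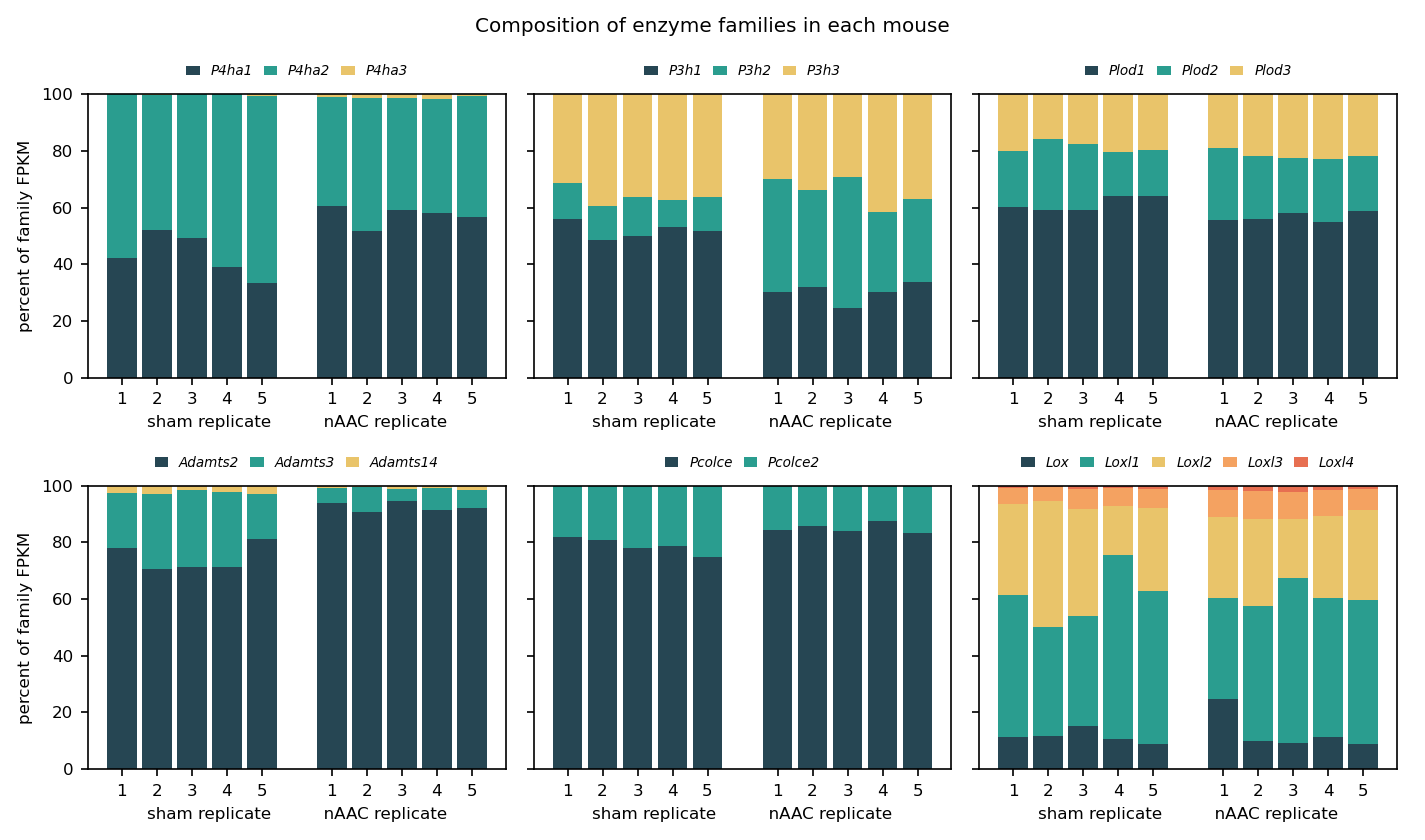
Percent of the summed FPKM of 6 enzyme families supplied by each gene, with 1 stacked bar per mouse (sham 1 to 5, then nAAC 1 to 5). The Adamts2 share is 90.8% to 94.6% in nAAC and 70.7% to 81.4% in sham mice, the P3h1 share 24.6% to 33.8% against 48.4% to 55.9%, and the Lox share stands out in nAAC 1 at 24.8%.

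Cross-linking was the step with the narrowest range of log2 FC on log2(FPKM + 1). All 5 tested genes were DEGs, before and after median-ratio scaling, against 5.01% and 3.09% of all genes tested. Their median log2 FC was 1.59, with a range from 1.44 to 1.65. With a pseudocount of 0.1 the range was 1.62 (Tgm2) to 2.24 (Loxl3), and without nAAC 1 it was 1.08 (Lox) to 1.62 (Loxl1). Ratios of group means ran from 3.04 (Tgm2) to 6.70 (Loxl4, not tested). The summed FPKM of the 6 genes was 141 to 195 in nAAC against 43.9 to 66.9 in sham mice. Lysyl oxidases convert lysine side chains of collagen and elastin to reactive aldehydes that then form covalent bonds. Loxl1 (chr9:58287738-58313186, minus strand), a lysyl oxidase noted for its role in elastic fibers, was the most abundant of them. It stood at 29.0, 22.4, 26.2, 32.1 and 25.8 FPKM in nAAC and at 7.73, 6.51, 6.06, 9.62 and 10.4 FPKM in sham mice. The groups were well apart, and the log2 FC was 1.65 ± 0.15 (SE, adjusted p = 6.26e-06).

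Loxl2, which acts on the collagen IV of basement membranes among other substrates, varied more between mice. It stood at 23.1, 14.6, 9.47, 18.8 and 16.2 FPKM in nAAC and at 4.94, 7.57, 5.87, 2.60 and 5.64 FPKM in sham mice, with a log2 FC of 1.46 ± 0.24 (SE, adjusted p = 6.36e-04). The lowest nAAC mouse, nAAC 3, was only a little above the highest sham mouse, sham 2. The antisense gene Gm27177 overlaps Loxl2 at 1.60 FPKM in nAAC and 0.972 FPKM in sham mice. Loxl3 stood at 7.87, 4.71, 4.23, 6.04 and 3.76 FPKM in nAAC and at 0.844, 0.853, 1.12, 0.966 and 1.31 FPKM in sham mice, with a log2 FC of 1.62 ± 0.16 (SE, adjusted p = 9.62e-06). The separation was wide in every mouse, while Htra2, which overlaps its end on the opposite strand, was at 7.28 FPKM in nAAC and 7.23 FPKM in sham mice.

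Lox, the founding member of the family, stood at 20.2, 4.76, 4.12, 7.39 and 4.56 FPKM in nAAC mice 1 to 5 and at 1.77, 2.02, 2.34, 1.59 and 1.73 FPKM in sham mice 1 to 5. All nAAC mice were above all sham mice, but nAAC 1 was far above the other nAAC mice, which all lay below the mean of 8.20 FPKM. The log2 FC was 1.44 ± 0.31 (SE, adjusted p = 0.00398), and it was 1.08 without nAAC 1, still as a DEG. The Lox share of the summed FPKM of the 5 lysyl oxidases was 12.9% ± 6.75 in nAAC and 11.6% ± 2.23 in sham mice (SD, n = 5, exact permutation p = 0.9206), and the difference of 1.25 percentage points turned to -1.74 without nAAC 1. Loxl4 was below the filter on level, at 1.12, 0.818, 1.01, 0.950 and 0.602 FPKM in nAAC and from 0.0845 to 0.215 FPKM in sham mice. Its groups did not overlap (exact permutation p = 0.0079), and it was higher in nAAC mice in the fit with no filter (log2 FC 0.74, adjusted p = 2.71e-04).

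Tgm2, tissue transglutaminase, joins glutamine and lysine side chains of matrix proteins and also has roles inside the cell. Tgm2 (chr2:158116402-158146436, minus strand) stood at 114, 112, 117, 105 and 90.5 FPKM in nAAC and at 34.3, 26.8, 33.8, 34.6 and 47.5 FPKM in sham mice. The groups were far apart, with a log2 FC of 1.59 ± 0.15 (SE, adjusted p = 6.53e-06). Tgm2 alone supplied more FPKM than the 5 lysyl oxidases together in every mouse of both groups. It overlaps Rprd1b, transcribed from the opposite strand at 6.39 FPKM in nAAC and 5.01 FPKM in sham mice.

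The fibrillar collagens are substrates of most of these enzymes, although P3h2, Loxl1 and Loxl2 are known for other substrates too. Of 9 substrate genes listed 6 were tested, and 5 were DEGs in the nAAC direction, against 5.01% of all genes tested. Col1a1 rose from 10.1 ± 2.34 to 45.9 ± 5.81 FPKM (SD, n = 5), a log2 FC of 2.09 ± 0.15 (SE, adjusted p = 7.89e-07), Col1a2 by 2.0 ± 0.19 (adjusted p = 6.74e-06) and Col5a2 by 1.84 ± 0.22 (adjusted p = 4.01e-05). Col5a3 did not pass (log2 FC -0.03 ± 0.16, adjusted p = 0.897). To compare the change of each gene with that of these collagens, its log2(FPKM + 1) was taken minus the mean of Col1a1, Col1a2 and Col3a1 in the same mouse, and the difference was tested between the groups. The mean log2 FC of these 3 collagens was 1.89 (exact permutation p = 0.0079).

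By this measure 17 of the 27 genes had a smaller log2 FC than the collagens, 5 of which had not passed the test of nAAC against sham, 10 could not be told from them and 0 had a larger one, also at an unadjusted p below 0.05. Of all genes tested, 97.0% had a smaller log2 FC and 0.396% a larger one, so a smaller value than that of collagen is the usual case. With Col1a1 alone as the reference, 23 genes had a smaller log2 FC and 4 could not be told from it (Pcolce, Loxl1, Tgm2 and P3h2). With the 3 collagens, the 10 were the 5 cross-linking genes (differences from -0.44 for Lox to -0.24 for Loxl1), Adamts2 (-0.29 ± 0.21), Pcolce (-0.24 ± 0.27), P4ha1 (-0.31 ± 0.27), Serpinh1 (-0.64 ± 0.32, adjusted p = 0.0618) and P3h2 (0.45 ± 0.26, adjusted p = 0.0988), each with its SE. With SEs from 0.21 to 0.32 on the log2 scale, a missed threshold does not show equal change. P3h2 passed with a larger log2 FC than the collagens with a pseudocount of 0.1, without nAAC 4 and without sham 4. P3h3, also a DEG, had a smaller log2 FC than the collagens (-0.56 ± 0.23, adjusted p = 0.0258). The furthest behind were P3h4 (-2.37), Adamts3 (-2.04) and Fkbp10 (-2.04), followed by Colgalt2 and Fkbp7, both at -1.65.

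**Figure D4:**
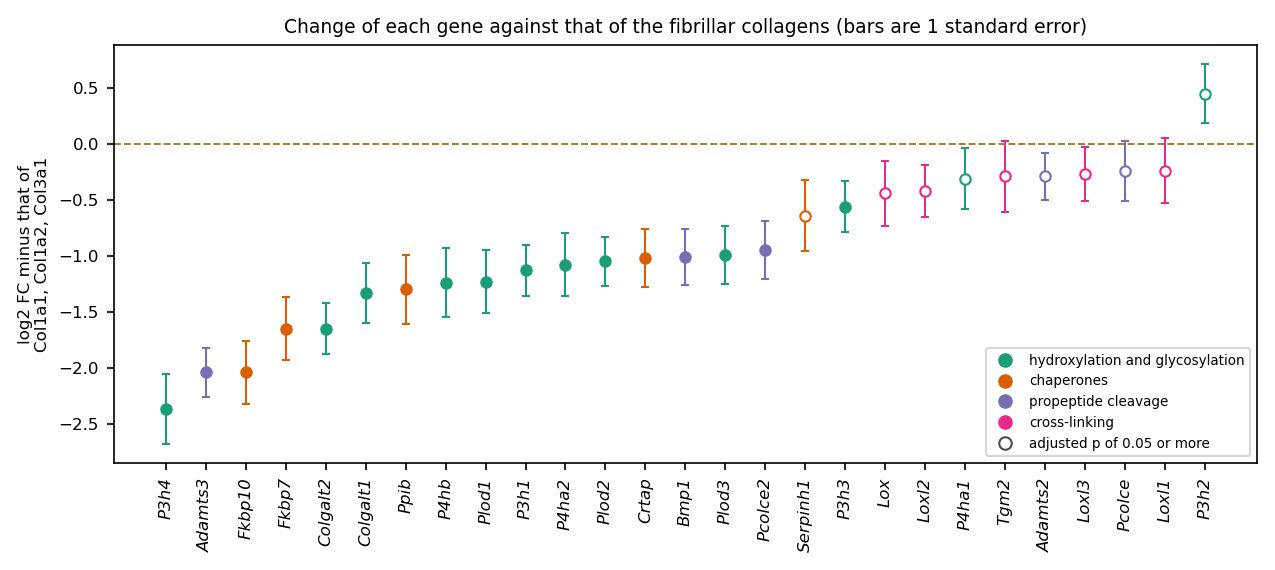
Log2 FC of each of the 27 tested genes minus that of Col1a1, Col1a2 and Col3a1 in the same mice, with 1 standard error (5 mice per group) and filled points where the adjusted p is below 0.05. The 17 filled points, from P3h4 at -2.37 to P3h3 at -0.56, lie below the dashed line, and P3h2 at 0.45 is the one point above it.

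Other genes of the pathway were less uniform. Of 16 genes of export from the endoplasmic reticulum, which load procollagen into transport carriers, none was a DEG, 4 rose at the adjusted p alone and 1 fell, with a median log2 FC of 0.25 beside 0.22 for all genes. These counts are near the shares of 27.1% higher and 4.60% lower over all genes tested. The 4 genes were Sec31a (0.63 ± 0.14, adjusted p = 0.00465), Sec13 (0.51 ± 0.13, adjusted p = 0.00826), Sec24d (0.46 ± 0.14, adjusted p = 0.0256) and Sec23b (0.38 ± 0.09, adjusted p = 0.00657), all subunits of the COPII coat. Other listed subunits of this coat did not pass, namely Sec23a (adjusted p = 0.092), Sec24a (0.278), Sec24b (0.335) and Sec24c (0.154). Sar1a and Sar1b did not pass either. Mia2, a cargo receptor, fell by 0.38 ± 0.13 (adjusted p = 0.0438). After median-ratio scaling none of the 4 increases passed.

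Of 27 accessory factors found in the tables, 24 were tested, 16 rose, 5 of them as DEGs, and none fell, with a median log2 FC of 0.50. The shares over all genes tested were 27.1%, 5.01% and 4.60%. The DEGs were Postn, a matrix protein that assists Bmp1 and Lox (3.78 ± 0.27, adjusted p = 7.53e-07), Fmod, a proteoglycan that binds collagen fibrils (1.87 ± 0.22, adjusted p = 4.85e-05), Sparc, a collagen-binding glycoprotein (1.31 ± 0.21, adjusted p = 5.17e-04), Fkbp11 (1.13 ± 0.23, adjusted p = 0.00280) and Efemp2, which helps to activate Lox (1.06 ± 0.15, adjusted p = 2.21e-04). After median-ratio scaling 9 rose, 3 of them as DEGs, and 1 fell, against 13.0%, 3.09% and 12.1% of all genes.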

How the data were processed

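LV RNA-seq libraries of 5 nAAC and 5 sham mice were grouped by the sample titles. The authors deposited a gene table per mouse with read coverage, FPKM and TPM, in the column layout of StringTie. The submitters' processing notes name mm10. The aligner, counter, versions and use of strand are not given in the sources used here. These tables give no read counts, so a count model was not used. Rows sharing a gene ID were summed. The main test was limma 3.58.1 (R 4.3.3) with a mean-variance trend on log2(FPKM + 1) above a minimum mean FPKM of 1, with Benjamini-Hochberg adjustment over 11867 genes. Shares of a family were compared by two-sided exact permutation tests, adjusted over 8 families. The deposited TPM served as an alternative unit, and the deposited coverage gave the estimate of depth. P values set the difference between the groups against the spread between mice, which limma estimates with information shared over all genes tested. Promoter sequences are from RefSeq (GRCm38.p6), and 99.41% of the shared genes had coordinates equal to GENCODE M21.

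The genes, lists, families and tests were chosen with earlier results of these data known. All 31 genes are named, with every mouse given for DEGs and for the most abundant gene of each step, and the other genes of the pathway by counts and the largest changes. Increases beyond the 3 largest of a list were chosen after their values were seen. The symbols Ero1a and Fbln4 were not matched, the latter being an older name of Efemp2. Figures were drawn with matplotlib 3.10.9.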

Additional observations from a re-analysis of the deposited data

Results flagged for a closer look

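Single mice far from the rest of their group were looked for in 78 groups of 5 values, and 2 were found, where chance gives about 3.9. The gap of the extreme mouse, as a part of the range of its group, was compared with the Dixon limit of 0.71. In P3h3, log2(FPKM + 1) of nAAC 4 was the highest, with a gap of 0.76 of the range. In the Lox share of the lysyl oxidase family, nAAC 1 was the highest, with a gap of 0.85. P3h3 was still a DEG without nAAC 4, and the Lox share is given without nAAC 1 beside its result. The cause of either value was not tested.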

How the results depend on the processing

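The 11 DEGs of the set numbered 11 or 12 when each mouse was left out in turn, and all 11 were among them each time. They numbered 16 with TPM, 12 with a pseudocount of 0.1, 10 after median-ratio scaling, 9 after removal of GC and length trends (without P3h3 and Serpinh1) and 8 with the fibroblast markers as a covariate (without Lox at 1.21, Loxl2 at 1.24 and Serpinh1 at 1.01). Shares of DEGs over all genes were counted only for the main fit (5.01%) and for median-ratio scaling (3.09%). Increases at the adjusted p alone numbered 8 with the fibroblast covariate and 24 with no filter, against 22. Some that no longer passed with the covariate moved little, such as Plod2 from 0.83 to 0.91 and P4ha2 from 0.80 to 0.77, and others fell further, such as Bmp1 from 0.87 to 0.31. The median log2 FC of 0.87 became 0.62 after median-ratio scaling, 1.06 with TPM, 0.58 with the fibroblast covariate and 0.52 after removal of GC and length trends. The median over all genes tested moved as well, from 0.22 to 0.0, 0.38, 0.05 and 0.0 in the same order. Decreases numbered 2 after median-ratio scaling and after removal of GC and length trends, 1 with upper-quartile scaling, 1 with Xist as a covariate and 0 to 1 when a mouse was left out (1 without sham 2), against 0. With the replicate block, which left 11 DEGs, there was 1 decrease, in P3h4. The sample titles do not say whether equal replicate numbers pair mice. Correlations between the deviations of mice with equal numbers ran from -0.316 to 0.192, which cannot exclude a pairing. With a pseudocount of 0.1, 1 gene, P3h2, had a larger log2 FC than the collagens, and 0 to 1 genes did when a mouse was left out (1 without nAAC 4 and 1 without sham 4). Leaving out a mouse moved the Lox share difference between -1.74 and 2.24 and that of P4ha1 between 11.5 and 16.2 percentage points. Signs turned for Fkbp7 (-0.02, median-ratio scaling), Fkbp10 (0.01, TPM) and Colgalt2 (-0.16, fibroblast covariate). The cause of these changes was not tested. The filter on level left 4 genes out of the main test, and these tables give no read counts behind their values.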
